A study of Mus musculus with 5 samples.

Results

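The genes described here encode the mitochondrial respiratory chain, and they come from both genomes of the cell. They are the protein-coding genes of the mitochondrial chromosome, 13 in number, and the 36 nuclear protein-coding genes whose symbol is Ndufa, Ndufb, Ndufc, Ndufs or Ndufv followed by digits only, which gives 49 of the 55573 genes in the count tables. The rule used names and gene types and no measured value. Of the 36 nuclear genes, 35 encode subunits of complex I, and the product of Ndufa4 is counted today as a subunit of complex IV. Of the 13 mitochondrial genes, 7 encode complex I subunits, and the others encode cytochrome b of complex III, the catalytic subunits of complex IV and the membrane subunits of ATP synthase.

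The data are bulk RNA sequencing of the right brain hemisphere of mice that carried a GL261 glioma, a murine line that the study had marked with luciferase/mKate2. All mice were C57BL/6 females, inoculated at 7 to 8 weeks of age into the right caudate nucleus-putamen and included on the bioluminescence of the tumor, so every hemisphere of both groups held tumor and no tumor-free brain was sequenced. The vehicle group (3 libraries) received inVivoPure pH 6.5 Dilution Buffer, and the UMBO group (2 libraries) received ultrasound-mediated blood-brain barrier opening, in which pulsed ultrasound is applied after an intravenous injection of microbubbles. Sessions were on days 21 and 24, and tissue was taken 24 h after the last session. By the deposited record each library is from a different mouse, and the comparison rests on these 2 UMBO mice. The study's methods describe a further UMBO mouse, which is not analysed here. The question put to these genes was whether RNA of the respiratory chain differed between UMBO and vehicle, and whether both genomes moved together.

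The respiratory chain passes electrons from nutrients to oxygen across the inner mitochondrial membrane and drives ATP synthase with the resulting proton gradient. Complex I, the entry point for electrons from NADH, is an L-shaped enzyme with a matrix arm, built from nuclear-encoded proteins, and a membrane arm whose proton-pumping core is encoded by mitochondrial DNA, so its assembly needs RNA from both genomes. Mitochondrial genes are transcribed as long polycistronic RNAs from both strands and cut apart at the tRNAs, and all protein genes but mt-Nd6 are read from the same strand. Neurons are among the cells that rely most on this chain.

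Total counts per library lay between 59736771 and 86164159, so precision was set by the number of mice rather than by depth, except for the few mitochondrial genes with low counts named below. Levels are given as CPM, counts scaled to a common library size by edgeR's TMM method, and fold changes as log2 of UMBO over vehicle with their standard error (SE). All 49 genes were among the 23592 tested with edgeR's quasi-likelihood test, and none of these 23592 genes reached a Benjamini-Hochberg adjusted p under 0.05, a background of 0.0%. The smallest adjusted p of any gene was 0.497, and DESeq2 called 39 genes, none of them among the 49. At an unadjusted p under 0.05 edgeR had 1738 genes (7.37%), 5.3% of all genes being higher and 2.06% lower with UMBO, and again none of the 49. UMBO replicate 2 stood apart from the other libraries, with a summed level of 12 proliferation markers of 511 CPM against 40.5 to 131 in the others, of 12 monocyte and macrophage markers of 482 CPM against 52.9 to 149, and of 15 neuronal markers of 5012 CPM against 9976 to 14497; all of these markers were detected in every library, the neuronal ones at 71.7 CPM or more. The summed level of 8 astrocyte markers was 2199 CPM in UMBO replicate 2 and 3715 to 5251 CPM in the others. That of 8 choroid plexus markers was 731 CPM in UMBO replicate 2 and 1334 to 1562 CPM in the others. The summed levels of markers of microglia (10 genes, 699 and 837 CPM in UMBO against 362 to 518 in vehicle), of endothelial cells (9 genes, 336 and 347 against 197 to 277 CPM) and of red blood cells (5 genes, 181 and 216 against 71.8 to 165 CPM) were above all vehicle libraries in both UMBO libraries. Gene by gene, this held for 8 of 10, 4 of 9 and 3 of 5 of them, against 11.5% of all genes tested. The summed proliferation markers also lay above all vehicle libraries in both UMBO libraries, at 131 and 511 CPM against 40.5 to 120 CPM. Of these 12 genes, 9 were so placed. Their median log2 fold change was 2.14, and 0.93 without UMBO replicate 2. In UMBO replicate 2, 2 of the microglial and 3 of the endothelial markers lay below all vehicle libraries. The main results below are given with and without UMBO replicate 2, and the part of cell composition in these values was not tested. In bulk tissue, fewer cells of a type and less RNA per cell cannot be told apart.

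By their counts, the mitochondrial genes formed an abundant and a rare tier. These words describe counts here, and not levels in the cell. Per kilobase of transcript, the vehicle mean was 10608 CPM for mt-Co1, the catalytic core of complex IV, 8992 for mt-Cytb of complex III, 7370 for mt-Nd1, 4835 for mt-Nd2, 3564 for mt-Nd4, 3374 for mt-Nd5 and 775 for mt-Nd6. The other 6 genes lay between 1.19 CPM per kilobase for mt-Atp8 and 11.5 for mt-Co2, with mt-Atp6 at 10.7, mt-Co3 at 8.99, mt-Nd3 at 2.27 and mt-Nd4l at 1.49. These 6 are neighbors on the chromosome, from base 7013 to base 10173 of GRCm38, and together took only 924 to 2078 counts per library, against 1225667 to 4829608 for all 13. The tier of a gene was the same in every library, as the plot of levels in genome order shows.

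**Figure D1:**
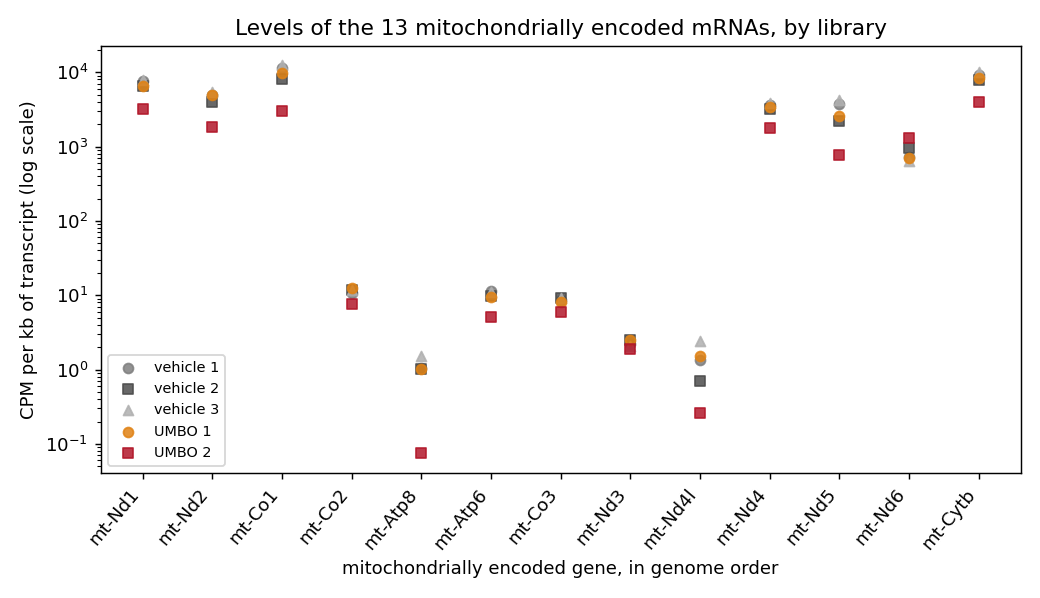
Level of each of the 13 mitochondrially encoded mRNAs in CPM per kilobase of transcript (vertical log axis), in the order of the genes on the mitochondrial chromosome, with a point for each of the 5 libraries. The 6 neighboring genes from mt-Co2 to mt-Nd4l lie far below the other 7 in every library, and UMBO replicate 2 is the lowest library for all but mt-Nd6.

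The rare tier coincided with a stretch of chromosome 1 that holds near-identical nuclear copies of these genes, annotated as the unprocessed pseudogenes Gm28661, Gm10925, Gm28437, Gm28438 and Gm10222. The copy of mt-Co2, which encodes the copper-bearing subunit of complex IV, matched it over 681 bases with 0 mismatches. The same held for mt-Atp6 (678 bases), mt-Co3 (783 bases) and mt-Nd4l (294 bases). The mt-Nd3 copy had 1 mismatch in 345 bases. The start of mt-Co2 and the start of mt-Nd3 with its copy are shown because, apart from 1 base of mt-Nd3, they have the same letters in both genomes. The mt-Co2 sequence below is letter for letter that of Gm28661 at chr1:24615446-24615565 on the minus strand, and the capital in the mt-Nd3 pair marks the single base, at position 3, where the copy differs.

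mt-Co2, chrM:7013-7132, plus strand: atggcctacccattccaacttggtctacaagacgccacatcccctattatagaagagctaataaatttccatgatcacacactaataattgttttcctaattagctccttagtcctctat

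mt-Nd3, chrM:9459-9538, plus strand: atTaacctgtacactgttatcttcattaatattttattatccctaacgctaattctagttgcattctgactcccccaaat

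Gm28438, chr1:24613040-24613119, minus strand: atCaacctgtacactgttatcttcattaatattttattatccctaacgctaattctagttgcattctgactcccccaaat

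The chromosome 1 copies were counted more often than the mitochondrial genes they match, at 664% of the counts of mt-Atp6, 712% of mt-Co3, 736% of mt-Nd4l, 737% of mt-Co2 and 3744% of mt-Nd3, over all libraries. Counts for these genes are therefore uncertain, since reads that fit both places are not told apart by sequence. The sums and shares of mitochondrial counts below include these genes. No annotated copy of mt-Atp8 was found, although it lies between mt-Co2 and mt-Atp6 and shares 43 bases with the latter. Only annotated transcripts were searched, so an unannotated copy, such as one between Gm28661 and Gm10925, would have been missed. The copies of the abundant genes were either partial or less similar. The identical copy of mt-Nd4 covered 63.6% of the transcript and the nearest copy of mt-Co1, at 99.79% identity, 31.3%. Copies that covered the whole or nearly the whole transcript were found for mt-Co1 (Gm13340, 97.61% identity), mt-Nd6 (Gm11408, 93.64%) and mt-Cytb (Gm11410, 92.91%), and no copy of mt-Nd1 of at least 90% identity was found. The part of multiple mapping in the low counts was not tested, because the reads were not used.

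The abundant mitochondrial genes read from the common strand were lower in UMBO replicate 2 than in any other library, and close to vehicle in UMBO replicate 1. mt-Nd1, a membrane subunit next to the quinone site of complex I (chromosome M, bases 2751 to 3707), stood at 7330, 6291 and 7539 CPM in vehicle replicates 1 to 3 and at 6267 and 3052 CPM in UMBO replicates 1 and 2. It was the only abundant member in which both UMBO libraries lay below all vehicle libraries, UMBO replicate 1 only just. Its log2 fold change was -0.60 (SE 0.44, adjusted p = 0.519), and -0.17 without UMBO replicate 2.

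mt-Co1, bases 5328 to 6872, was the most abundant member, with 17351, 12704 and 19115 CPM in vehicle and 15091 and 4717 CPM in UMBO. UMBO replicate 1 thus lay inside the vehicle range and UMBO replicate 2 far below it. The log2 fold change was -0.73 (SE 0.61, adjusted p = 0.550), and -0.12 without UMBO replicate 2.

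mt-Nd5, the distal proton-pumping subunit of complex I and the longest mitochondrial mRNA (1824 bases), had the most negative fold change of the abundant tier. Its levels were 6857, 3972 and 7634 CPM in vehicle and 4691 and 1425 CPM in UMBO. The vehicle libraries spread over a wider range than the distance between the group means, 6154 ± 1929 CPM (SD, n = 3) against 3058 ± 2309 CPM (SD, n = 2). The log2 fold change was -1.01 (SE 0.62, adjusted p = 0.497), and -0.39 without UMBO replicate 2.

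The remaining abundant genes of that strand had the same order of libraries. mt-Cytb, the only mitochondrial gene of complex III, stood at 10424, 9039 and 11397 CPM in vehicle and 9659 and 4500 CPM in UMBO, with a log2 fold change of -0.54 (SE 0.47, adjusted p = 0.562). mt-Nd2 stood at 5169, 4179 and 5707 against 5053 and 1892 CPM, at -0.53 on the log2 scale (SE 0.50, adjusted p = 0.583). mt-Nd4 stood at 5009, 4453 and 5273 against 4748 and 2419 CPM, at -0.45 on the log2 scale (SE 0.41, adjusted p = 0.570). Both are proton-pumping subunits of the membrane arm, and without UMBO replicate 2 their log2 fold changes were 0.01 and -0.05.

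mt-Nd6 is the exception in how it is made and in its values. It is the only protein gene read from the other strand (bases 13552 to 14070), and its end overlaps that of mt-Nd5 by 14 bases, so its counts also depend on the strand setting, which is not given in the sources used here. It stood at 380, 492 and 334 CPM in vehicle and at 365 and 687 CPM in UMBO. UMBO replicate 2 was thus its highest library. The log2 fold change was 0.39 (SE 0.35, adjusted p = 0.568), and -0.14 without that library.

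In the rare tier, with few counts, UMBO replicate 2 was again the lowest library for every gene, while the order of the other libraries varied. mt-Atp6, the proton-channel subunit of ATP synthase, stood at 7.74, 6.73 and 7.44 CPM in vehicle and 6.50 and 3.43 CPM in UMBO, with a log2 fold change of -0.55 (SE 0.33, adjusted p = 0.497). mt-Co3 stood at 6.75, 7.18 and 7.23 against 6.35 and 4.62 CPM, at -0.36 on the log2 scale (SE 0.25, adjusted p = 0.508). In both genes the UMBO libraries lay below all vehicle libraries, which together with mt-Nd1 makes 3 of 13 (23.1%) against 11.4% of all genes tested. mt-Atp6 and mt-Co3 are among the genes with uncertain counts. Of the 7 mitochondrial genes over 300 CPM, only 1, mt-Nd1, was so placed.

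mt-Co2 stood at 7.41, 8.04 and 8.11 CPM in vehicle and 8.53 and 5.30 CPM in UMBO, and mt-Nd3 between 0.656 and 0.877 CPM in all 5 libraries. Neither separated the groups, and their log2 fold changes were -0.18 and -0.04. mt-Atp8 had 16, 14 and 26 counts in vehicle and 18 and 1 in UMBO, and mt-Nd4l had 30, 14 and 61 against 39 and 5, so differences between these libraries rest on few reads.

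Within the mitochondrial RNA the proportions of the genes also differed between libraries. The ratio of mt-Cytb to mt-Nd1 counts was nearly the same everywhere, from 1.42 to 1.54. The ratio of mt-Nd5 to mt-Nd1 was 0.935, 0.631 and 1.01 in vehicle and 0.749 and 0.467 in UMBO. The ratio of mt-Nd6 to mt-Nd5, genes of opposite strands, was 0.0555, 0.124 and 0.0437 in vehicle and 0.0778 and 0.482 in UMBO. UMBO replicate 2 was at the extreme of the last 2 ratios and vehicle replicate 2 was next to it, while UMBO replicate 1 lay inside the vehicle range in both. The ribosomal RNAs of the mitochondrion, cut from the same precursor as the mRNAs, did not follow them: mt-Rnr1 and mt-Rnr2 together took 0.907%, 1.11% and 1.00% of counts in vehicle and 1.02% and 1.30% in UMBO. Mitochondrial rRNA per mitochondrial mRNA was accordingly 0.189, 0.267 and 0.179 in vehicle and 0.222 and 0.634 in UMBO. The part of library preparation or RNA integrity in these ratios was not tested.

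The nuclear genes had the opposite order of libraries. Of the 36, 33 had a log2 fold change above 0 (50.9% of all genes tested did), the exceptions being Ndufs1, Ndufb2 and Ndufv1. Their median was 0.38, against -0.54 for the 13 mitochondrial genes and 0.01 for all genes tested. None passed the test, and in Ndufc2 alone (1 of 36, 2.78%) both UMBO libraries lay above all vehicle libraries, against 11.5% of all genes. UMBO replicate 2 was the highest library for 32 of the 36 and the lowest for 12 of the 13 mitochondrial genes. Among all 23592 genes tested, UMBO replicate 2 was the highest library for 9529 and the lowest for 9398. Without it the medians were 0.03 for the nuclear and -0.12 for the mitochondrial genes.

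**Figure D2:**
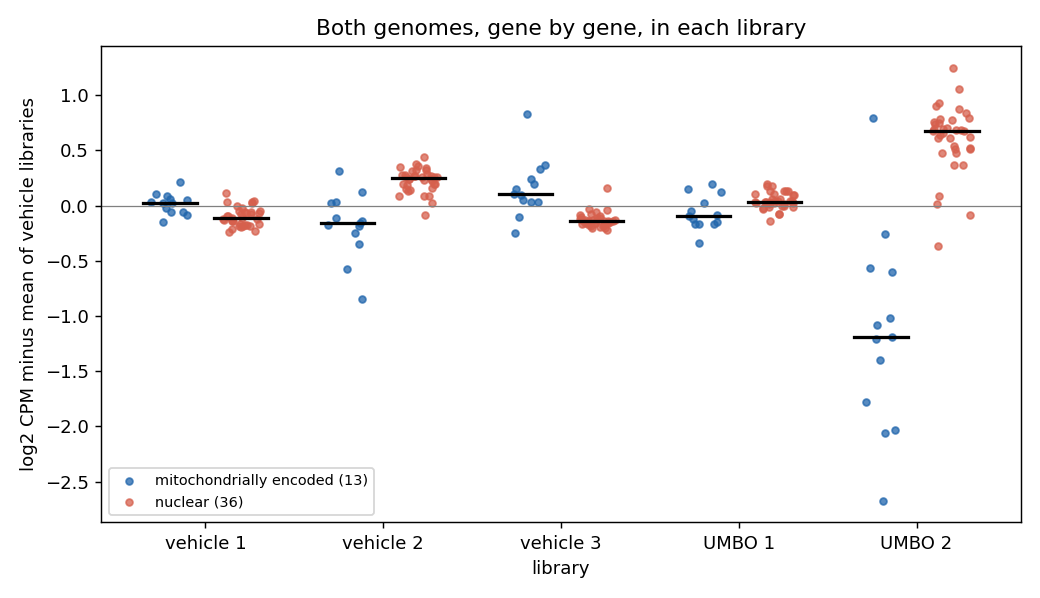
Each member's log2 CPM minus its mean over the vehicle libraries (vertical axis), by library, with mitochondrially encoded genes in blue, nuclear genes in red and the median of each as a black line. The medians part in UMBO replicate 2, at -1.19 and 0.68, and in the same direction but less in vehicle replicate 2, at -0.16 and 0.25, while UMBO replicate 1 is at -0.10 and 0.03.

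The nuclear core subunits are the catalytic part of the matrix arm, conserved from bacteria, and 5 of the 7 had a positive log2 fold change (median 0.21). Ndufv1, which binds FMN and takes electrons from NADH, stood at 137, 141 and 122 CPM in vehicle and 127 and 134 CPM in UMBO, with a log2 fold change of -0.03 (SE 0.18, adjusted p = 0.928). Ndufv2, the iron-sulfur subunit beside it, stood at 114, 139 and 107 against 122 and 191 CPM, at 0.38 on the log2 scale (SE 0.26, adjusted p = 0.504). Ndufs1, the largest subunit of the complex, stood at 147, 128 and 132 against 134 and 105 CPM, at -0.18 (SE 0.20, adjusted p = 0.627). The 3 subunits form the electron input end of the enzyme, and in UMBO replicate 2 they were in the vehicle range, above it and below it, respectively. Exons of Ndufs1 overlap Ino80dos on the opposite strand by 320 bases, so its counts also depend on the strand setting.

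Other core subunits form the part of the matrix arm toward quinone. Ndufs7, at the quinone site, stood at 45.6, 59.7 and 44.1 CPM in vehicle and 48.7 and 84.9 CPM in UMBO, with a log2 fold change of 0.42 (SE 0.28, adjusted p = 0.502). Ndufs3 stood at 77.6, 83.4 and 67.1 against 75.6 and 97.8 CPM, at 0.19 on the log2 scale (SE 0.20, adjusted p = 0.616). The iron-sulfur subunit Ndufs8 stood at 55.3, 66.0 and 52.2 against 58.5 and 80.3 CPM, at 0.26 (SE 0.21, adjusted p = 0.537). In these 3 genes UMBO replicate 1 lay inside the vehicle range, UMBO replicate 2 lay above it, and the log2 fold change without that library was between -0.03 and 0.02.

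The 28 accessory subunits of complex I, which surround and stabilize the core, had a median of 0.41, and 27 of them had a positive log2 fold change. By location, the medians were 0.34 for the 16 nuclear genes of the matrix arm and 0.41 for the 19 of the membrane arm. The genes with the smallest p were Ndufa2, Ndufc2 and Ndufb6. Ndufa2, a thioredoxin-like subunit of the matrix arm, stood at 34.8, 55.7 and 35.8 CPM in vehicle and 46.6 and 97.8 CPM in UMBO, and its log2 fold change of 0.78 (SE 0.37, adjusted p = 0.497) was the highest among the 36. Ndufc2, of the membrane arm (chromosome 7, bases 97400003 to 97407802), stood at 70.4, 80.9 and 68.3 against 83.4 and 112 CPM, at 0.42 (SE 0.20, adjusted p = 0.497). Without UMBO replicate 2 these values were 0.15 and 0.19, and the latter was the highest left among the nuclear members. Ndufb6, also of the membrane arm, stood at 39.4, 49.6 and 38.2 against 47.7 and 68.3 CPM, at 0.45 (SE 0.22, adjusted p = 0.497).

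Ndufb2 was the only accessory subunit with a negative value, at 18.2, 21.1 and 23.1 CPM in vehicle and 19.6 and 19.5 CPM in UMBO (log2 fold change -0.09, SE 0.18, adjusted p = 0.802). Its annotated transcript is the longest of the 36 (4371 bases), and it shares 146 exon bases with Braf on the opposite strand. Ndufa4, the complex IV subunit with a complex I name, was the most abundant nuclear member per kilobase, at 248 CPM in vehicle. Its levels were 148, 178 and 129 CPM in vehicle and 162 and 214 CPM in UMBO, with a log2 fold change of 0.31 (SE 0.24, adjusted p = 0.524).

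**Figure D3:**
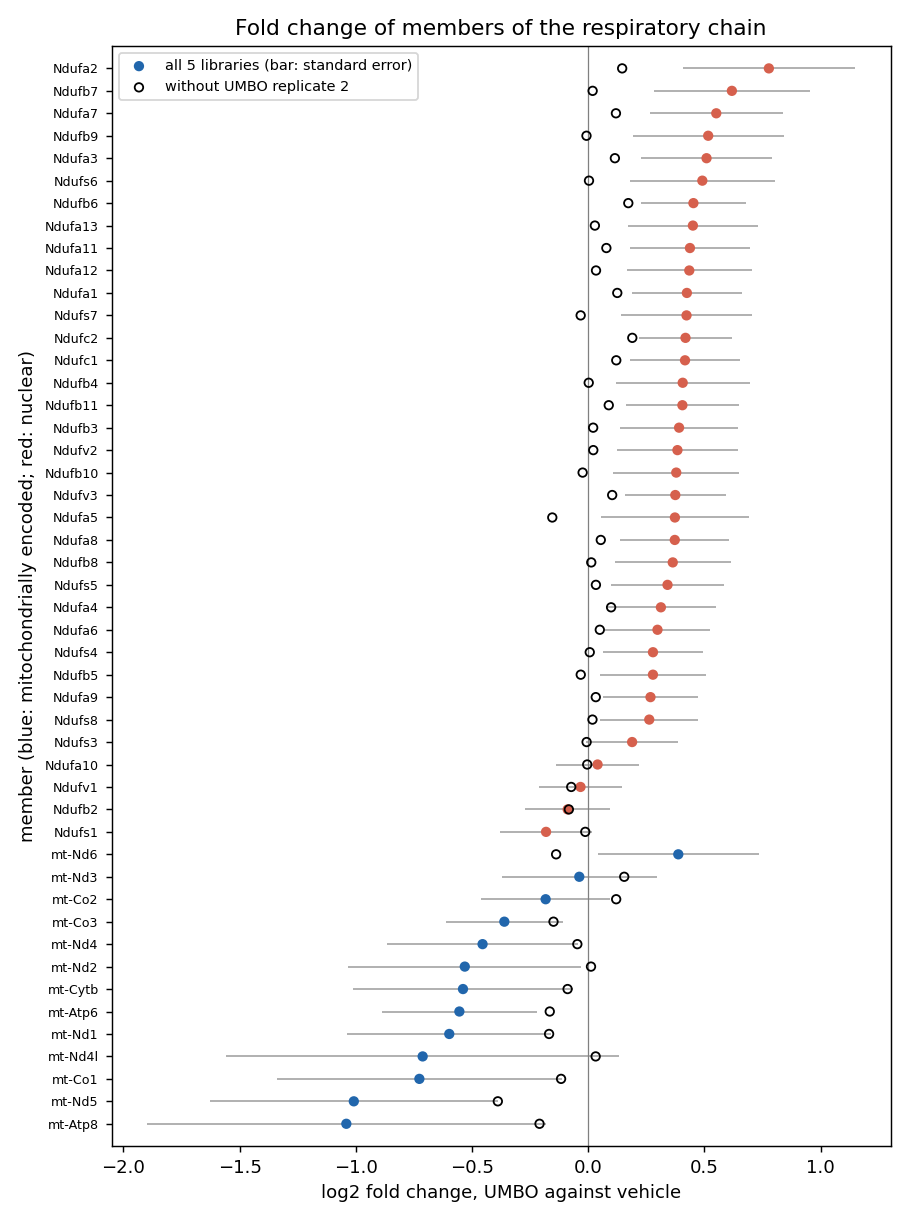
Log2 fold change of UMBO against vehicle for 48 of the 49 members (horizontal axis; filled points with their standard error, blue for mitochondrially encoded and red for nuclear genes), with the value without UMBO replicate 2 as an open circle. Filled points lie above 0 for 32 of 35 nuclear genes and below 0 for 12 of 13 mitochondrial genes, while the open circles of most members lie close to 0.

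Transcript length moved with these values. Over 16394 protein-coding genes, longer annotated transcripts had lower log2 fold changes (Spearman's rho -0.44, across genes that share the same libraries), and the nuclear members, most of them short, had rho -0.66 over 36 genes. The 20 nuclear members of 500 to 1000 bases had a median of 0.41, against 0.48 for all 935 protein-coding genes of that length. In the class from 1000 to 1500 bases the medians were 0.28 for 7 members and 0.33 for 1600 genes, and from 1500 to 2000 bases they were 0.28 for 5 members and 0.19 for 1946 genes. The longest members, Ndufa10, Ndufs1 and Ndufb2, had log2 fold changes between -0.18 and 0.04, where genes of 2000 to 4000 bases had a median of -0.0048 and longer genes one of -0.27. The positive values of the nuclear members were thus of the size found in other genes of their length. The abundant mitochondrial genes of the common strand lay below the medians of their length classes, with mt-Nd1, of 957 bases, at -0.60. Among these 6 genes rho was -0.49. mt-Nd6, of 519 bases, was at 0.39, near the median of its class. The length trend was steepest in UMBO replicate 2 and was also present in vehicle replicate 2, in which genes of 500 to 1000 bases had medians of 0.76 and 0.27 above the vehicle mean, against 0.13 in UMBO replicate 1. The part of RNA integrity or library preparation in this trend was not tested.

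**Figure D4:**
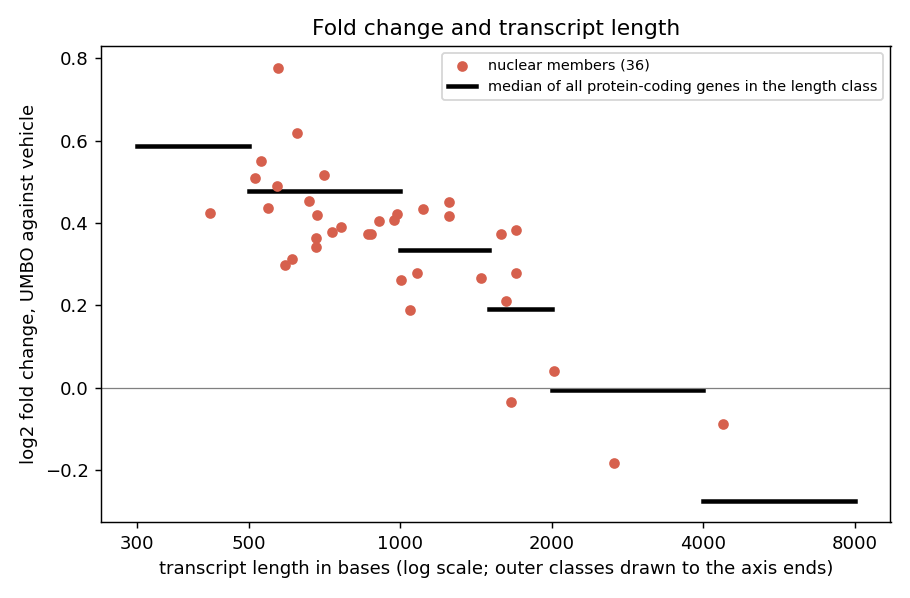
Log2 fold change of UMBO against vehicle (vertical axis) against annotated transcript length in bases (horizontal log axis) for the 36 nuclear members (red points), with the median of all protein-coding genes in each of 6 length classes as a black line. Members and all genes descend together, from medians near 0.4 to 0.5 at 500 to 1000 bases to values near or below 0 above 2000 bases.

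The balance of both genomes was compared within each library, where scaling between libraries plays no part. The mitochondrial genes took 4.79%, 4.17% and 5.61% of all counts in vehicle (4.86 ± 0.72%, SD, n = 3) and 4.61% and 2.05% in UMBO (3.33 ± 1.81%, SD, n = 2). The nuclear members took 0.223%, 0.299% and 0.230% in vehicle and 0.264% and 0.415% in UMBO. For each count on a nuclear member there were 21.5, 13.9 and 24.4 mitochondrial counts in vehicle and 17.4 and 4.94 in UMBO. UMBO replicate 1 lay inside the vehicle range in all 3 measures, so the groups were not separated, and without UMBO replicate 2 the group difference in the mitochondrial share went from -1.53 to -0.25 percentage points.

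The median log2 CPM of the 13 mitochondrial genes minus that of the nuclear members gave 2.81, 2.83 and 2.66 in vehicle and 2.64 and 2.87 in UMBO, a difference of only -0.01. That median is the value of mt-Nd6, which lies between 6 rare and 6 abundant genes and goes its own way, so it does not describe either tier. With the log2 ratio of summed counts the values were 4.42, 3.80 and 4.61 in vehicle and 4.12 and 2.31 in UMBO, a difference of -1.06. With the median of the 7 mitochondrial genes of complex I alone the difference was -1.21. That median is the value of mt-Nd4 in vehicle replicates 1 and 3 and of mt-Nd5 in the other libraries, so it too rests on single genes. By the summed counts and by the complex I genes, UMBO replicate 1 lay inside the vehicle range.

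**Figure D5:**
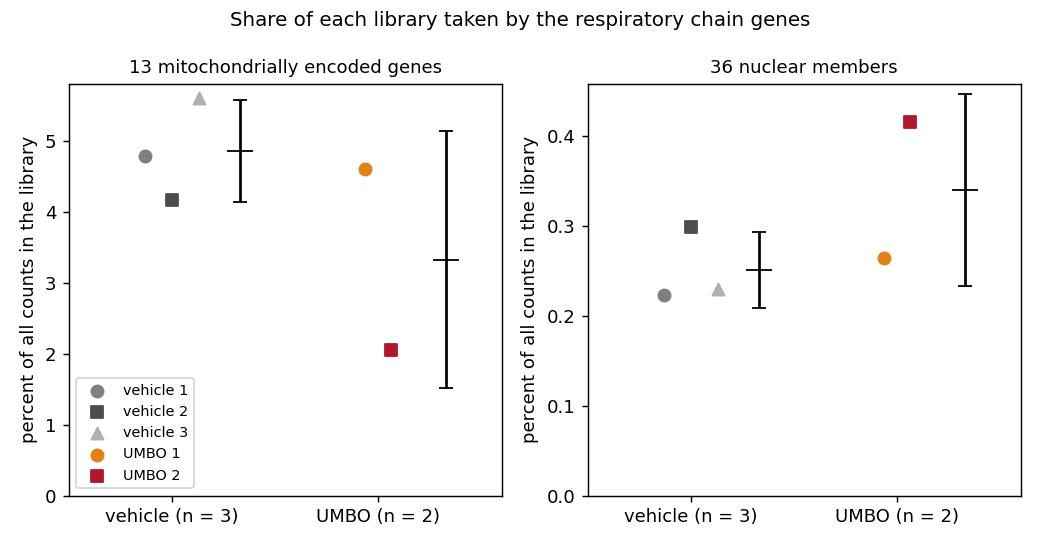
Percent of all counts in each library on the 13 mitochondrially encoded genes (left) and the 36 nuclear members (right), with a point for each library, and the mean with its SD as a bar beside the points of each group. UMBO replicate 2 has the lowest mitochondrial share, 2.05%, and the highest nuclear share, 0.415%, while UMBO replicate 1 lies among the vehicle libraries in both panels.

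The nuclear genes of the other complexes resembled the nuclear members. All 18 tested genes of ATP synthase (median 0.43) and all 10 ubiquitous nuclear subunits of complex IV (median 0.38) had positive log2 fold changes, as did 8 of 9 of complex III (median 0.30), 3 of 4 of complex II (median 0.27) and the electron carrier Cycs (0.28). None passed the adjusted test. UMBO replicate 2 carried these values, and without it the medians were 0.06 for ATP synthase, 0.08 for complex IV, 0.12 for complex III, 0.09 for complex II and -0.03 for Cycs. The genes with the smallest p were Uqcrq (0.79, SE 0.37) and Uqcr11 (0.62, SE 0.29) of complex III, Sdhd (0.43, SE 0.23) and Sdhc (0.28, SE 0.19) of complex II, Cox7c (0.47, SE 0.26) and Cox5a (0.47, SE 0.28) of complex IV, and Atp5g1 (0.47, SE 0.21) and Atp5g2 (0.75, SE 0.35), which encode the rotor ring of ATP synthase. Among 6 tested tissue-restricted isoforms of complex IV, the testis-type Cox6b2 stood at 1.99, 4.40 and 3.20 CPM in vehicle and 4.44 and 10.3 CPM in UMBO (1.21, SE 0.49), and the muscle-type Cox7a1 had a log2 fold change of 0.85 (SE 0.35). Both had an adjusted p of 0.497.

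Genes that build or regulate the chain were less uniform. Of 17 tested assembly factors of complex I, 12 had a positive value (median 0.06), and Ndufaf8 (0.58, SE 0.39) and Dmac1 (0.34, SE 0.20) had the smallest p. The mitochondrial ribosome, which translates the 13 mitochondrial mRNAs, had 73 of 76 genes with a positive value (median 0.36), with Mrps6 at 0.94 (SE 0.37) and Mrpl28 at 0.66 (SE 0.27). The 31 genes of mitochondrial transcription and RNA processing were split, 15 positive and 16 negative (median -0.01), with Hsd17b10, a subunit of the enzyme that cuts tRNA 5′ ends, at 0.72 (SE 0.26) and Slirp, which stabilizes mitochondrial mRNA, at 0.69 (SE 0.37). Of 8 genes of mitochondrial DNA replication, 7 were positive (median 0.37), with Dna2 at 0.87 (SE 0.41) and the single-strand binding protein Ssbp1 at 0.57 (SE 0.28). Ppargc1a, the coactivator of mitochondrial biogenesis, had 70.6, 51.1 and 59.8 CPM in vehicle and 51.7 and 28.6 CPM in UMBO (-0.59, SE 0.30, adjusted p = 0.497), and Pprc1, its relative, lay at 0.44 (SE 0.26). For all 10 regulators the median was -0.04. UMBO replicate 2 was the highest library for 74 of the 76 mitochondrial ribosome genes, against 9529 of all 23592 genes tested. Without UMBO replicate 2 the medians were 0.03 for the mitochondrial ribosome and 0.05 for mitochondrial DNA replication. The citric acid cycle, which feeds the chain, had 12 of 17 genes with a negative value (median -0.12), with Idh3a at -0.28 (SE 0.24) and Ogdh at -0.25 (SE 0.22). That median was 0.02 without UMBO replicate 2. No gene of these lists passed the adjusted test.

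The promoters of the nuclear members were searched because factors that are known to regulate respiratory genes bind defined motifs. RefSeq promoter sequences (GRCm38.p6, 250 bases before to 50 after the start) were found for 32 of the 36. The NRF1 motif, GCGC and TGCGC with any base between them, was present on either strand in 7 of 32 (21.9%, against 5.19% of the promoters of 27025 genes), the YY1 motif AAGATGGC in 7 of 32 (21.9% against 3.19%) and the ETS motif CCGGAAG in 4 of 32 (12.5% against 9.93%). The 27025 genes were not matched to the members in expression or gene type, so these shares do not show a trait particular to respiratory genes. The stretches of Ndufs5 and Ndufb6 are shown, with the motif in capitals, as members whose motif lies upstream of any annotated exon. Both genes are small accessory subunits of the membrane arm.

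Ndufs5, NRF1 motif, chr4:123718245-123718314, minus strand: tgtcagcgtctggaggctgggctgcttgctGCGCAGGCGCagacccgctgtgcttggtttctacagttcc

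Ndufb6, ETS motif, chr4:40279602-40279671, minus strand: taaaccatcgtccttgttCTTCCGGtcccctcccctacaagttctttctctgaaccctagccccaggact

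Both motifs are in reverse complement as written. The 17 members with any of the 3 motifs had a median log2 fold change of 0.37, and the 15 members without had 0.38. A match of letters is a description and not a binding site.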

How the data were processed

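Right hemispheres of 3 vehicle and 2 UMBO mice were sequenced from SMARTER mRNA-Seq libraries. The paper's methods describe 6 mice, 3 per group, and the deposited record 5, and the remaining UMBO mouse is not analysed here. Sample labels gave each library its group and replicate number. The authors mapped the reads to GRCm38 with STAR 2.7.2a at default parameters and deposited the unnormalized read counts, CPM being computed here. The annotation release and the strand setting of the counting are not given in the sources used here. By default STAR's gene counts hold only reads that map to a single place.

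Symbols, types, positions and transcripts were from GENCODE M21, on the same build, and at most 0.00173% of a library's counts lay on genes with no symbol. Counts were scaled by TMM, filtered with filterByExpr and tested in edgeR 4.0.16 under R 4.3.3 (quasi-likelihood, no covariates), with Benjamini-Hochberg adjustment over the 23592 genes tested. Log2 CPM used a prior count of 2. The script was tested on simulated counts. Copies of the members were sought among annotated transcripts of other genes with blastn 2.17.0 at a minimum identity of 90%. Transcript length was that of the annotated principal coding transcript (APPRIS), or else of the longest coding one, which need not be the one expressed here.

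The members and gene lists were chosen with earlier results of these data known, so no p-value was computed over a list. Named genes were the 13 mitochondrial genes, the 7 nuclear core subunits (of which 1 is counted but not reported here), the 3 nuclear members with the smallest p in each direction, Ndufa4, and in every other list the 2 genes of smallest p. Other genes named besides these, such as Ndufa10, were chosen after their values were seen. Alternatives covered the scaling, the filter, DESeq2 1.42.0, a block for the replicate number, leaving out each library, and other summaries of each genome. p-values measure the spread between these mice only.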

Additional observations from a re-analysis of the deposited data

How the results depend on the processing

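No member passed the adjusted threshold with DESeq2's size factors, library size alone, scaling without the mitochondrial chromosome, either other filter, DESeq2 or the replicate block. With each library left out in turn, between 0 and 5 members passed, and between 0 and 4543 of all genes. The 5 were found without UMBO replicate 1, where UMBO is a single library assumed to vary like the vehicle libraries: Ndufb7 (log2 fold change 1.01), Ndufa2 (1.19), Ndufa7 (0.86), mt-Nd5 (-2.14) and mt-Atp8 (-3.88, with 1 count in that UMBO library). With the replicate number as a block 2337 genes passed, and DESeq2 called 39. The labels do not say that equal numbers share a litter or day, only 2 numbers are shared by both groups, and deviations of same-numbered libraries correlated at 0.45 and 0.76, so the pairing is not established. With each library left out, the median log2 fold change lay between -1.22 and -0.12 for the mitochondrial genes, between 0.025 and 0.64 for the nuclear members, and the difference in mitochondrial share between -2.80 and -0.25 percentage points, each pair of ends coming from leaving out UMBO replicate 1 or UMBO replicate 2. Library size alone shifted the median of all genes from 0.01 to 0.13.

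The difference between the genomes by medians, -0.01, ranged from -0.13 to 0.10 with a library left out and turned positive without vehicle replicate 1 (0.01), vehicle replicate 2 (0.02) or UMBO replicate 1 (0.10). It was -0.94 with means, -1.06 with summed counts, -1.21 with complex I genes alone, -0.90 without mt-Nd6 and -1.16 with the mitochondrial genes over 300 CPM, the last chosen after seeing the data. The complex I value is that of mt-Nd4 or mt-Nd5, depending on the library. Without mt-Nd6 the median lies midway between a rare and an abundant gene, so it describes neither tier. With 2 UMBO mice, of which 1 stood apart, differences of these sizes between the groups could not be separated from differences between mice.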

Other observations

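Genes with related names lie outside the rule. Ndufb1-ps, which the annotation lists as a non-coding gene and not as protein-coding, stood at 38.3, 49.4 and 36.5 CPM in vehicle and 45.4 and 78.0 CPM in UMBO, with a log2 fold change of 0.58 (SE 0.28, adjusted p = 0.497 by edgeR) and 0.13 without UMBO replicate 2. Ndufa4l2, a hypoxia-responsive relative of Ndufa4, stood at 1.79, 2.58 and 2.15 CPM in vehicle and at 3.02 and 3.72 CPM in UMBO, so both UMBO libraries lay above all vehicle libraries. Its log2 fold change was 0.63 (SE 0.30, adjusted p = 0.497) with all libraries and 0.47 without UMBO replicate 2.

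The nuclear copies on chromosome 1 did not all follow the mitochondrial genes they match. Gm10222, the copy of mt-Nd4l, was lowest in UMBO replicate 2, at 0.977 CPM against 2.25 to 3.94 CPM in the other libraries. Gm28661, the copy of mt-Co2, stood at 52.5, 65.1 and 44.5 CPM in vehicle and 55.7 and 64.4 CPM in UMBO. Gm28438, the copy of mt-Nd3, lay between 26.1 and 31.9 CPM in all 5 libraries.

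The nuclear long non-coding RNA Malat1 stood at 2787, 3866 and 2174 CPM in vehicle and 2726 and 6438 CPM in UMBO, so that UMBO replicate 2 and vehicle replicate 2, the libraries with the smallest ratio of mitochondrial to nuclear member counts, also had the most Malat1.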
